A study of Caenorhabditis elegans with 2 samples.

Results

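The regions described here are the peaks of CEBP-2 in young adult Caenorhabditis elegans that share at least 1 bp with a nuclear tRNA gene. They were taken from the deposited ranked list of both replicates together, which holds every peak of the main list, the thresholded list of the same analysis. Of its 112494 peaks, 499 met a tRNA gene, and 161 of these 499 were also in the main list of 1419 peaks. Seen from the genes, 500 of the 612 nuclear tRNA genes had a ranked peak, 177 had a main list peak and 112 had neither.

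CEBP-2 is a basic leucine zipper protein of the C/EBP family. The data are chromatin immunoprecipitation and sequencing of whole worms, with 2 biological replicates of 1 group. Both replicates were strain OP331, which carries the array wgIs331, a cebp-2 (C48E7.11) transgene fused to EGFP, TY1 and 3xFLAG tags, with unc-119(+) in an unc-119(ed3) background. Animals were synchronised as starved L1 larvae after bleaching and collected as young adults at 64 h. The labels conflict on the antibody: the sample descriptions give one against GFP, while the antibody field names cebp-2. Whether untagged CEBP-2 could also have been recovered therefore cannot be told from them. Sex was not recorded, the tissues of the animal are pooled, and no control immunoprecipitation was analysed here. The files hold called peaks without read counts, so depth per replicate is unknown.

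A tRNA gene is transcribed by RNA polymerase III from a promoter that lies inside the gene. Factor TFIIIC binds the internal elements box A, in the 5′ part, and box B, in the 3′ part, and places TFIIIB just upstream, which recruits the polymerase. Transcription ends at a run of T shortly after the gene. In C. elegans many tRNA genes are identical copies spread over the chromosomes, and many lie inside introns of protein-coding genes.

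The following sequences carry the comparisons below and are given from 5′ to 3′ on the strand of the gene, from the RefSeq sequence of the build WBcel235, which is ce11. Capitals mark the letters GTTCNANNC, the core of box B, and where present TNGCNNAG, a form of box A, both found on the strand of the gene. The first 2 are identical proline tRNA genes, F02H6.t1 (chrIV:14225102-14225173, plus strand) and ZK970.t2 (chrII:10305011-10305082, plus strand), the copies with the highest and the lowest ranked signal in a family of 24.
F02H6.t1: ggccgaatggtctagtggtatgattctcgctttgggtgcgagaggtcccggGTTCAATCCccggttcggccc
ZK970.t2: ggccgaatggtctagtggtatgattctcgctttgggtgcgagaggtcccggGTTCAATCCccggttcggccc
The 40 bases just before each gene are given to show that the copies differ upstream of the gene.
F02H6.t1 upstream: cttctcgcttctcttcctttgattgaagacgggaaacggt
ZK970.t2 upstream: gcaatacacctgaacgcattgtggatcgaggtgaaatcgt
Tandem alanine genes in an intron of him-4, F15G9.t1 (chrX:9743589-9743660, plus strand) and F15G9.t2 (chrX:9743747-9743818, plus strand), lie at the tRNA peak of highest signal.
F15G9.t1: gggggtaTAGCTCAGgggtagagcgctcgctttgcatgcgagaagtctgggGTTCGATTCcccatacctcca
F15G9.t2: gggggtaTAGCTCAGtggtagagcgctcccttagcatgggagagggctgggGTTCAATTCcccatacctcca
The leucine gene C04A11.t1 (chrX:13665555-13665673, plus strand) and the serine gene K02A4.t1 (chrX:12889940-12890021, plus strand) are the genes of highest signal among those whose sequence occurs only once.
C04A11.t1: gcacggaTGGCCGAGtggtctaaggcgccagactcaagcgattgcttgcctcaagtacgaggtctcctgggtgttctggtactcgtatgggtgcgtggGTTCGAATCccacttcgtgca
K02A4.t1: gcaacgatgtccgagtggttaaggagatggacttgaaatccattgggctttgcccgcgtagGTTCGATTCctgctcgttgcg
A histidine gene, C06G1.t1 (chrX:16634830-16634901, minus strand), and a cysteine gene, T28C12.t1 (chrV:6335398-6335469, plus strand), stand for the amino acids with the lowest and the highest share of genes with a main list peak among those with at least 5 genes, and were chosen after these shares were seen.
C06G1.t1: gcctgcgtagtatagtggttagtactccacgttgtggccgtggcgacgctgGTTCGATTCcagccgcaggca
T28C12.t1: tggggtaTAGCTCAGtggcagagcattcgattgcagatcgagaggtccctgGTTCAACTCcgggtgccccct

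Peaks at tRNA genes were in the thresholded main list of the authors far more often than ranked peaks elsewhere. A peak is said to pass here where it is in the thresholded list of the same analysis. The threshold is set on the irreproducible discovery rate (IDR). It is low for peaks that keep their rank when replicates, or other parts of the data, are ranked separately. Of the 499 tRNA peaks, 161 (32.3%, 95% Wilson interval 28.3 to 36.5%) were in the main list, against 1258 of 111995 other ranked peaks (1.12%). The difference was 31.1 points (95% Newcombe interval 27.2 to 35.4), and over all ranked peaks the share was 1.26%. The main list lacks 116 ranked peaks whose score is at or above its lowest score, and 0 of these are tRNA peaks. Why they are missing was not tested. A difference is called here where this interval leaves out 0, and the intervals cover the counting of peaks or genes only.

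The same held in the authors' other lists, at lower shares in each replicate alone. The own lists of a replicate come from that replicate alone, so passing there does not measure agreement between the replicates. In the conservative analysis of both replicates 156 of 493 tRNA peaks (31.6%) passed, against 1.04% of all ranked peaks. Of the ranked peaks of replicate 1 alone, 25 of 405 at tRNA genes (6.17%) passed, against 0.484% of all its ranked peaks. In replicate 2 alone 71 of 441 (16.1%) passed, against 0.549%. The difference between tRNA peaks and the other peaks of the same ranked list was 5.73 points (3.78 to 8.51) in replicate 1 and 15.6 points (12.5 to 19.4) in replicate 2.

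Other short noncoding RNA genes were set beside the tRNA genes in the same lists. Of 244 ranked peaks at snoRNA genes, whose RNAs guide RNA modification, 58 (23.8%) were in the main list, 8.49 points (1.54 to 15) below the share at tRNA genes. The direction turned in replicate 1 alone, with 6.17% of tRNA peaks and 15.8% of snoRNA peaks passing, a difference of -9.67 points (-15.7 to -4.47). In replicate 2 alone it was -5.52 points (-12.7 to 0.972). Peaks at snRNA genes, all those of that annotated biotype, passed in 19 of 85 cases (22.4%). The difference from tRNA peaks was 9.91 points (-0.786 to 18.6). It was 10.9 points (0.174 to 19.4), and called, in the conservative analysis, and was not called in either replicate alone. A higher share at tRNA genes than at snoRNA genes was thus found in the analyses of both replicates together and not in either replicate alone.

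The signal value that the authors' peak caller gave each peak was used to rank peaks within a list. The median over the 499 tRNA peaks was 55.1, against 23.4 over the other ranked peaks, and the median tRNA peak stood at percentile 96.2 of the ranked list. Main list peaks at tRNA genes had values of 58.5 to 205 with a median of 89.0, and 123 of the 161 (76.4%) lay above the median of the main list. Peaks at tRNA genes made up 161 of the 1419 main list peaks. None of them was among the 20 highest of the main list, 8 were among the highest 100 and 31 among the highest 200. The counts among the highest 20 and 100 lie near the share of tRNA peaks in the list, and that among the highest 200 somewhat above it. In the main list, 23 peaks stood above the highest tRNA peak. Ranked peaks outside the main list reached higher signals, up to 3485 against 390.5 inside it.

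The 338 tRNA peaks outside the main list had signal values of 2.06 to 90.2 with a median of 45.3. Of these, 62 had a signal above the lowest value inside, since the threshold is on reproducibility and not on signal. Just inside it by score, the cysteine gene F32B4.t1 and the lysine gene Y70C5A.t1 both had a signal of 69.8 and −log10 global IDR values of 2.03 and 2.04. Just outside, the methionine gene T28F2.t1 had a signal of 61.4 and a value of 2.00, and the lysine gene K01A11.t1 had a signal of 68.6 and a value of 1.99.

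All 499 tRNA peaks were 270 bp wide with the summit at the centre, as were 112470 of the 112494 ranked peaks in width. A peak is therefore several times as long as a tRNA gene, whose median length was 72 bp, and 23 of the 499 peaks touched 2 tRNA genes. Signal at such a gene is the signal of a shared peak.

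The strongest tRNA peak lay over F15G9.t1 and F15G9.t2, which carry alanine, in an intron of him-4, the gene of the extracellular matrix protein hemicentin, on the same strand. Its signal was 204.7 with both replicates together, rank 24 of the main list, and 69.4 in replicate 1 and 127.5 in replicate 2. It was in the own thresholded list of each replicate. The peak held all 72 bp of F15G9.t1 but 16 bp of F15G9.t2. Its whole sequence, chrX:9743493-9743762 on the plus strand, is given to show how the genes lie in it, with tRNA gene bases in capitals.
Peak at F15G9.t1: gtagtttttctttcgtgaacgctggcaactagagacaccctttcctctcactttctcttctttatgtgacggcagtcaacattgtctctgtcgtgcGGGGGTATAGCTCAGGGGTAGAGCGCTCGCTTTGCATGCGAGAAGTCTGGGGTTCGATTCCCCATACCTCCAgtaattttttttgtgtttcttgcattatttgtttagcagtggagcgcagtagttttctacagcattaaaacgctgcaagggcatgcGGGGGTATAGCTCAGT

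The next peaks lay on X as well. The peak at M02F4.t1, a glycine gene (chrX:3036164-3036235), had a signal of 176.7, with 87.0 in replicate 1 and 87.8 in replicate 2. It shared 2 bp with the divergent glutamate gene M02F4.t2, whose place among the highest genes rests on those bases. The lysine gene W03G11.t1 (chrX:12106147-12106219) had 172.6, with 62.9 in replicate 1 and 110.9 in replicate 2.

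The leucine gene C04A11.t1, 119 bp long and present once in the genome, had 170.6, with 80.4 in replicate 1 and 84.6 in replicate 2. The isoleucine gene C42D8.t1 (chrX:5085622-5085695) followed with 156.0, with 63.1 in replicate 1 and 84.7 in replicate 2. The highest autosomal gene was the proline gene F02H6.t1 on IV, with 144.3, 60.0 in replicate 1 and 88.1 in replicate 2. All of these were in the own list of each replicate, except that M02F4.t2 was in that of replicate 1 alone.

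Of the other highest 12 genes, the valine gene F22G12.t1 on I, in an intron of F22G12.4 on the opposite strand, had 141.7, with 43.0 in replicate 1 and 92.8 in replicate 2. It was in the own list of replicate 2 and not in that of replicate 1. The proline gene H06A10.t1, the threonine gene T25B6.t2 and the lysine gene C33G3.t2, all on X, had 139.4, 135.4 and 134.5. These last 3 were in both own lists. These 12 genes had 10 distinct peaks, 8 of them on X, which holds 45.1% of all tRNA genes. Of the 12, 11 belonged to families of identical copies, as did 76.6% of all tRNA genes, the exception being C04A11.t1.

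At the median, tRNA genes with a peak stood high in the ranked list of each replicate, while the replicates ordered single genes alike only in part. A ranked peak was present at 422 genes (69.0%) in replicate 1 and at 449 (73.4%) in replicate 2. The median signal was 25.9 in replicate 1, at percentile 93.0 of its list, and 39.8 in replicate 2, at percentile 96.2. Values of the replicates come from separate lists and are set side by side without comparing their levels. Genes with a main list peak had medians of 34.7 (percentile 98.4) in replicate 1 and 57.0 (percentile 99.3) in replicate 2, against 21.0 (82.4) and 31.1 (87.6) at the other genes. The main list was made from these replicates, so this gap is a description and no test.

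Over the 363 genes that both ranked lists cover, signal had a Spearman rho of 0.571 and a Pearson r of 0.555 on the log2 scale. Over the 166 of them with a main list peak rho was 0.207 and r was 0.254. These are correlations across genes, which are not independent replicates, and some genes share a peak. The summits of the replicates lay a median of 42 bp apart over all such genes and 26 bp apart over those in the main list.

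Each replicate alone gave a smaller set of genes, from a shorter list. The own list of replicate 1 had 254 peaks, 25 of them at tRNA genes, and that of replicate 2 had 386, with 71 at tRNA genes. The main list had 1419, with 161 at tRNA genes. The own list of replicate 1 held peaks at 29 tRNA genes, of which 27 were in the main list, and that of replicate 2 at 77, of which 76 were. Both own lists held 20 genes and at least 1 held 86. Of the 177 genes with a main list peak, 94 were in neither own list, and 149 were also in the conservative list.

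**Figure D1:**
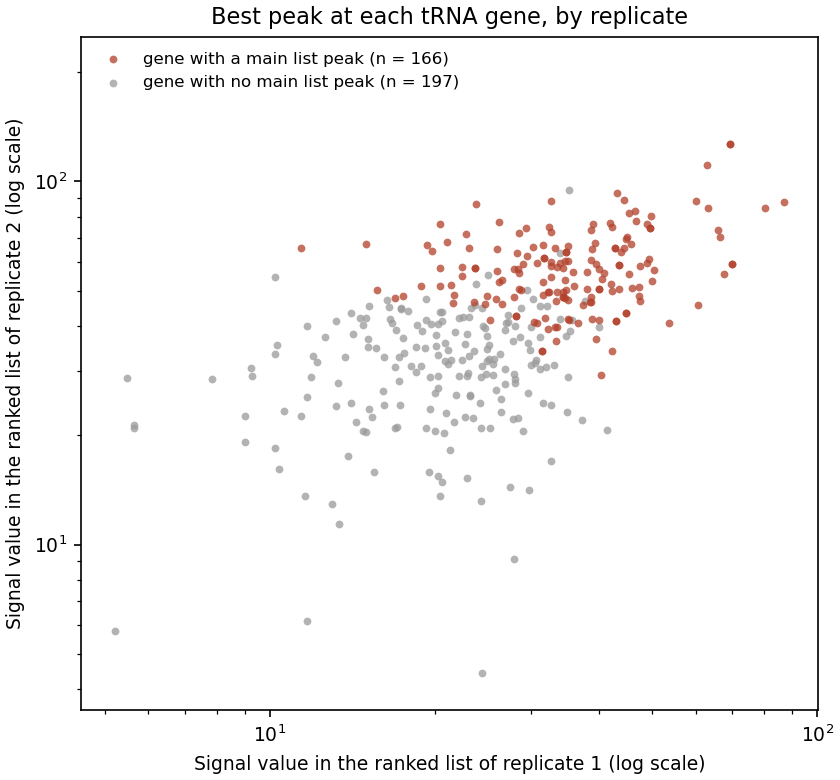
Signal value of the best peak at each tRNA gene in the ranked list of replicate 1 (horizontal axis, log scale) and of replicate 2 (vertical axis, log scale), for the 363 genes with a peak in both. The 166 genes with a main list peak (red) lie towards the upper right of the 197 without one (grey), and overlap them.

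Chromosome X held 276 of the 612 genes. With X set against the autosomes, a main list peak was present at 87 of 276 genes on X (31.5%, 26.3 to 37.2%) and at 90 of 336 autosomal genes (26.8%, 22.3 to 31.8%). The difference of 4.74 points (-2.46 to 12) was not called. The median signal of genes with a main list peak was 94.8 on X and 86.8 on autosomes. The shares in replicate 1 alone were 6.88% on X and 2.98% on autosomes, a called difference of 3.91 points (0.480 to 7.77), and in replicate 2 alone 14.9% and 10.7%, 4.14 points (-1.14 to 9.63). X was higher in each of these lists, and the interval left out 0 in the own list of replicate 1 and in the conservative list (7.48 points, 0.346 to 14.6).

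Among single autosomes the share ran from 14 of 64 genes on III (21.9%) and 16 of 66 on I (24.2%) to 21 of 78 on V (26.9%), 17 of 57 on II (29.8%) and 22 of 71 on IV (31.0%). Neighbours in this order did not differ beyond their Wilson intervals.

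Of the 4 ways in which the genes were divided, identity of sequence gave the largest difference in the main list. The 612 genes had 200 distinct sequences, and 469 genes fell into 57 families of identical copies, while 143 had a sequence of their own. A main list peak was present at 152 of the 469 genes in identical copies (32.4%, 28.3 to 36.8%) and at 25 of the 143 single genes (17.5%, 12.1 to 24.5%). The difference was 14.9 points (6.78 to 21.8) and was called. It was 15.7 points (5.15 to 24.2) on autosomes and 13.2 points (-0.416 to 24.0) on X. Among genes that hold the box B letters it was 15.5 points (7.01 to 22.5).

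The replicates did not give this difference to the same extent. In replicate 2 alone 14.1% of genes in identical copies and 7.69% of single genes had a peak, a difference of 6.38 points (0.133 to 11.2). In replicate 1 alone the shares were 4.90% and 4.20%, a difference of 0.708 points (-4.22 to 3.97). The difference was thus not called in the own list of replicate 1, a separate and shorter list with 23 of the 469 and 6 of the 143 genes. In the same list the differences by X (3.91 points, 0.480 to 7.77) and by introns (-5.56 points, -9.04 to -2.27) were called. Why the difference by identity was not called there was not tested. With the summit required to lie in the gene, the difference in the main list was 7.85 points (0.943 to 13.4).

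Single genes close in sequence to another tRNA gene had the higher share among single genes. Of the 90 single genes within 1 to 3 edits of another sequence, 20 (22.2%) had a main list peak, and of the 53 single genes at least 4 edits away, 5 (9.43%) did. That difference of 12.8 points (-0.292 to 23.8) was not called. By family size the shares were 26.9% for families of 2 to 4 genes, 30.1% for 5 to 14 and 36.1% for at least 15, with overlapping intervals. How reads that align to several identical copies were placed is not given in the sources used here, and its part in these differences was not tested. Only 2 genes were still identical to another with 50 bp to either side, and neither had a ranked peak.

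Among single genes the highest signals after C04A11.t1 were at the serine gene K02A4.t1 on X, with 118.3, 41.9 in replicate 1 and 76.9 in replicate 2, and at the isoleucine gene F33G12.t1 on II, with 117.7, 45.0 in replicate 1 and 70.4 in replicate 2. The tyrosine gene K09A11.t1 on X had 115.7, with 60.5 in replicate 1 and 45.7 in replicate 2. Single genes therefore also had peaks well above the main list median of 77.0. With a main list peak, the median signal was 88.6 for genes in identical copies and 96.2 for single genes.

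Copies of the same sequence differed widely from each other. Each of the 20 families with at least 10 genes had some genes in the main list and others outside it, as did 43 of all 57 families. Among copies with a ranked peak in those 20 families, the highest signal was 2.34-fold to 27.0-fold the lowest, with a median of 4.73-fold. The medians of these families lay between 44.6 and 80.1. High and low peak signals are thus found at genes of the same sequence. Some of the highest values belong to a peak shared with a neighbouring gene. M02F4.t2, highest of 20 glutamate genes, shared 2 bp with its peak, and F15G9.t2, highest of 15 alanine genes, shared 16 bp. The part of read placement among identical copies in these folds was not tested.

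The largest family, 29 glycine genes with the anticodon TCC, had 12 genes in the main list and signals of 6.53 at Y51H4A.t5 to 177 at M02F4.t1. The 25 lysine genes with CTT had 11 genes in the main list and signals of 11.0 to 173. Of the 24 proline genes with TGG, 6 were in the main list. F02H6.t1 had 144.3, while its identical copy ZK970.t2, in an intron of gcy-4, had 12.7, with 8.82 in replicate 1 and no ranked peak in replicate 2. The 72 gene bases printed for these copies are the same, and the 40 bases before them differ.

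**Figure D2:**
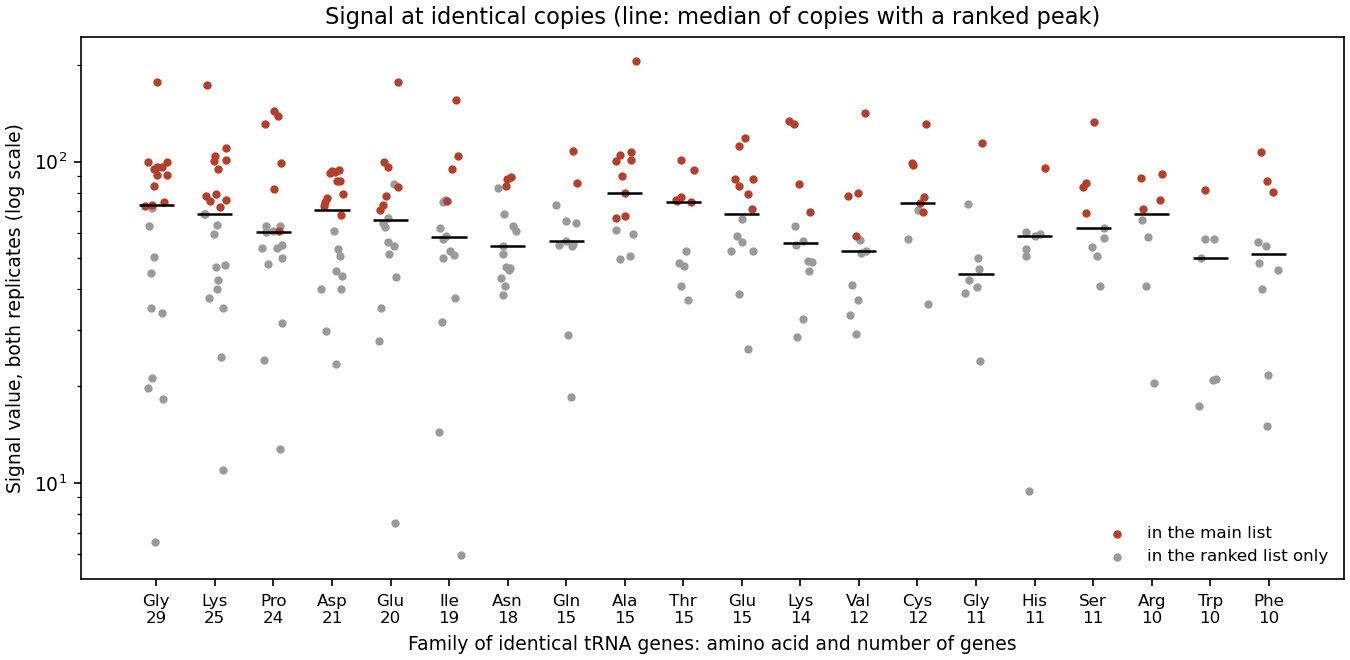
Signal value of the best ranked peak (log scale, both replicates together) at each gene of the 20 families with 10 or more identical genes; red points are in the main list, grey points in the ranked list only, and the line is the median. In every family red and grey points are both present, and families such as glycine with 29 genes span from 6.53 to 177.

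Clustering made no called difference. With another tRNA gene within 1000 bp, 67 of 236 genes (28.4%) had a main list peak, against 110 of 376 lone genes (29.3%), a difference of -0.865 points (-8.06 to 6.61). In replicate 1 alone the shares were 4.66% of clustered and 4.79% of lone genes, and in replicate 2 alone 13.1% and 12.2%. When the summit itself had to lie in the gene, the difference was -8.93 points (-14.4 to -2.98) and was called, a count that gives a shared peak to at most 1 of its genes.

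The 23 peaks that touched 2 genes lay at pairs 48 to 208 bp apart. Of 14 divergent pairs 9 were in the main list, of 6 tandem pairs 5 were, and of 3 convergent pairs 2 were. At the convergent pair of T23F1.t1 (lysine) and T23F1.t2 (proline) on V, 66 bp apart, the signal was 131.4, with 69.8 in replicate 1 and 59.4 in replicate 2. These numbers are too small for a comparison of orientations.

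Fewer genes inside introns than elsewhere had a peak, by a margin whose interval included 0 in the main list. Of the 612 genes, 284 lay wholly in introns of 220 protein-coding genes. A main list peak was present at 72 of 284 intronic genes (25.4%, 20.6 to 30.7%) and at 105 of 328 genes elsewhere (32.0%, 27.2 to 37.2%), a difference of -6.66 points (-13.7 to 0.549) that was not called. In replicate 1 alone the shares were 1.76% in introns and 7.32% elsewhere, a difference of -5.56 points (-9.04 to -2.27). In replicate 2 alone they were 9.15% and 15.5%, a difference of -6.39 points (-11.6 to -1.12). The interval thus left out 0 in each replicate's own list and in the conservative list, but not in the main list. With the summit required to lie in the gene, the main list difference was -3.86 points (-9.66 to 2.09).

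The direction was the same on X (-4.73 points, -15.5 to 6.98) and on autosomes (-6.80 points, -16.4 to 2.70), without a call in either. Within introns, 33 of 162 tRNA genes on the strand of the host gene (20.4%) had a main list peak, against 39 of 122 on the opposite strand (32.0%), a called difference of -11.6 points (-21.9 to -1.35). It was -7.30 points (-17.4 to 2.53) in the conservative list, 0.213 points (-4.10 to 3.86) in replicate 1 and -4.07 points (-11.6 to 2.74) in replicate 2.

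The intronic genes of highest signal after the F15G9 pair and F22G12.t1 included the cysteine gene C37A2.t1 on I. It lies in an intron of cye-1, which encodes cyclin E, and had 131.1, with 49.8 in replicate 1 and 80.1 in replicate 2. The hosts with most tRNA genes were ajm-1, which encodes an apical junction protein, and K01A12.3, with 5 each. Of these, 1 in ajm-1 and 0 in K01A12.3 had a main list peak.

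**Figure D3:**
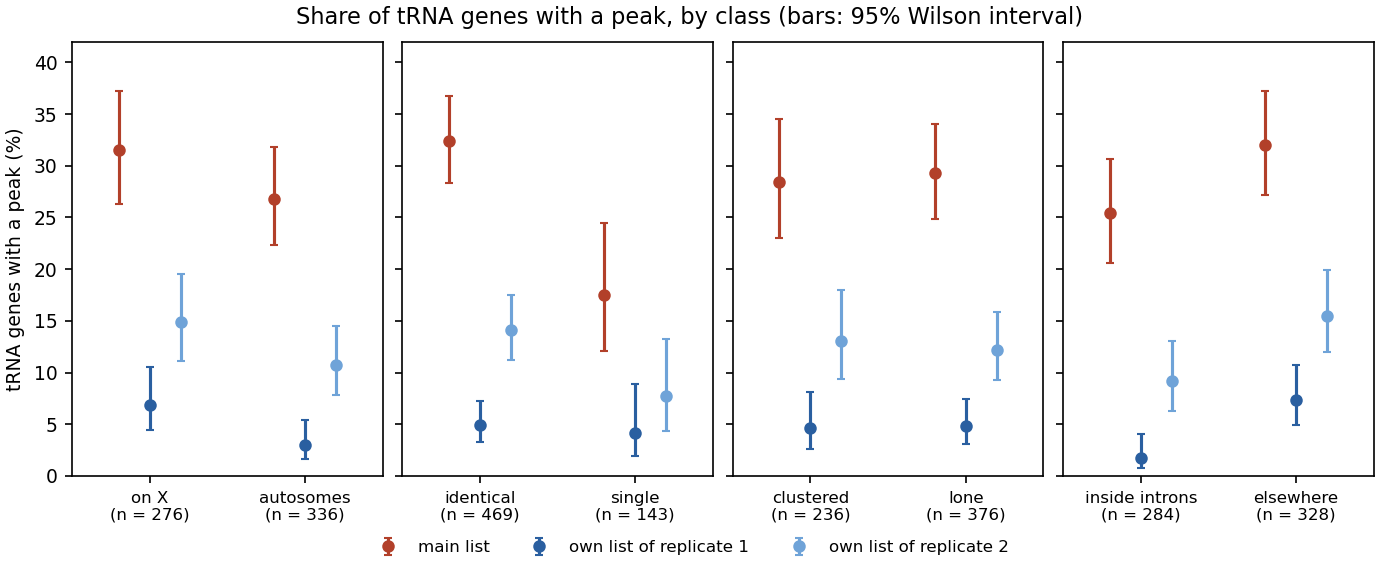
Share of tRNA genes with a peak (percent) in the main list and in each replicate's own list, for 4 ways of dividing the 612 genes, with 95% Wilson intervals. The widest gap in the main list is between identical and single genes (32.4% and 17.5%), while in both own lists the share is lower inside introns than elsewhere.

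Summits of main list peaks over a single tRNA gene lay mostly in the gene body, at the median nearer its 5′ end. Among the 145 main list peaks over a single tRNA gene, the summit lay a median of 23.0 bp after the first base of the gene, with quartiles of 4 and 47 bp and a range of -71 to 157 bp. Inside the gene were 96 of the 145 (66.2%, 58.2 to 73.4%), 30 were upstream and 19 downstream. Summits spread evenly over all places from which a peak of this width reaches a gene of the median length would be inside in 21.1% of cases. Of the 96, 63 were in the 5′ part of the gene and 33 in the 3′ part.

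In the replicates' own lists the median lay inside the gene as well, nearer its start, at 13.0 bp over 21 genes in replicate 1 and 19.0 bp over 63 genes in replicate 2. The value of replicate 1 differed from that of the main list by more than the SD of these medians (4.24 bp). Since that value enters the SD, this is a description and no measure of the uncertainty of a median. In the whole ranked list the median was 26 bp over 455 genes, with 57.4% of summits inside the gene. In the ranked lists of the replicates 45.2% (replicate 1) and 54.2% (replicate 2) were inside. With peaks over several genes included, the main list had 57.1% inside. In genes with a main list peak the box B letters began at a median position of 52.0 of the gene and the box A letters, where found, at position 8. No summit was assigned to a box, since the replicates' summits lay a median of 26 bp apart.

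**Figure D4:**
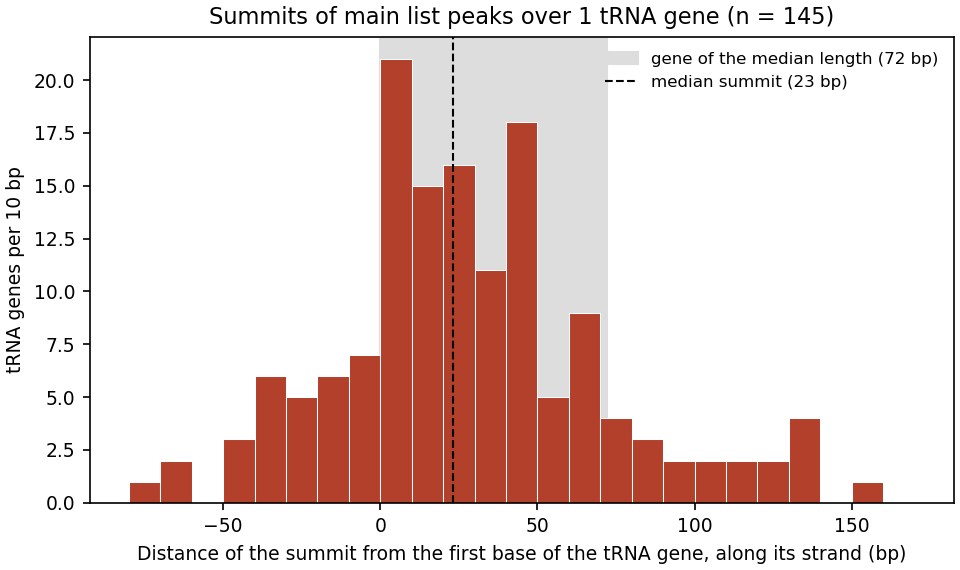
Distance of the peak summit from the first base of the tRNA gene along its strand (bp), for the 145 main list peaks over a single tRNA gene, in bins of 10 bp. The median of 23.0 bp (dashed) and most summits fall within the grey band of a gene of the median length, 72 bp.

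The internal promoter letters were about as frequent in genes with a peak as in those without. The box B letters are in 587 of all 612 genes, so they could not separate the groups. The box A letters are 1 form of that element, found in 43.8% of all genes, so a gene without them may still hold a box A. GTTCNANNC was found on the gene's strand in 170 of 177 genes with a main list peak (96.0%) and in 417 of 435 genes without (95.9%). The box A form TNGCNNAG was in 46.9% with a main list peak and 42.5% without, with overlapping intervals, and the 2 sets of letters share no gene bases. A run TTTT within 30 bp after the gene was present in all 177 genes with a main list peak and in 428 of 435 without (98.4%). Of the 1258 main list peaks at no tRNA gene, windows of 72 bases at the summit, searched on both strands, held the box B letters in 5.48% and the box A letters in 14.1%. A match is a description of letters and not of a bound site.

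Among amino acids with at least 5 genes, the share of genes with a main list peak was highest for cysteine, 7 of 13 genes (53.8%, 29.1 to 76.8%), alanine, 16 of 34 (47.1%, 31.5 to 63.3%), and aspartate, 12 of 27 (44.4%, 27.6 to 62.7%). It was lowest for histidine, 2 of 20 (10%, 2.79 to 30.1%), glutamine, 4 of 27 (14.8%, 5.92 to 32.5%), and asparagine, 3 of 20 (15%, 5.24 to 36%). The share over all 612 genes was 28.9% (25.5 to 32.6%). Neighbours in this order did not differ beyond their intervals. The intervals of cysteine and alanine lie above 28.9%, and those of the other amino acids include it; the order was read after the values were seen.

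Of the 20 histidine genes 10 had no ranked peak, against 18.3% of all tRNA genes. Of those 10, 4 are neighbouring genes of F28H6 on X in identical copies, including the 2 genes whose flanks are identical too. The printed histidine gene C06G1.t1 was among the 2 with a main list peak, with 95.5, 42.2 in replicate 1 and 50 in replicate 2. The printed cysteine gene T28C12.t1, a single sequence in an intron of T28C12.6, had 105, with 47.3 in replicate 1 and 51.2 in replicate 2. The own list of replicate 1 held 0 of the 27 aspartate genes and 4 of the 34 alanine genes, and that of replicate 2 held 3 and 9. Over all 612 genes the shares in those lists were 4.74% and 12.6%, so the aspartate counts lie near them. Of the 5 genes for which RefSeq gives no amino acid, 4 had a ranked peak and none a main list peak.

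**Figure D5:**
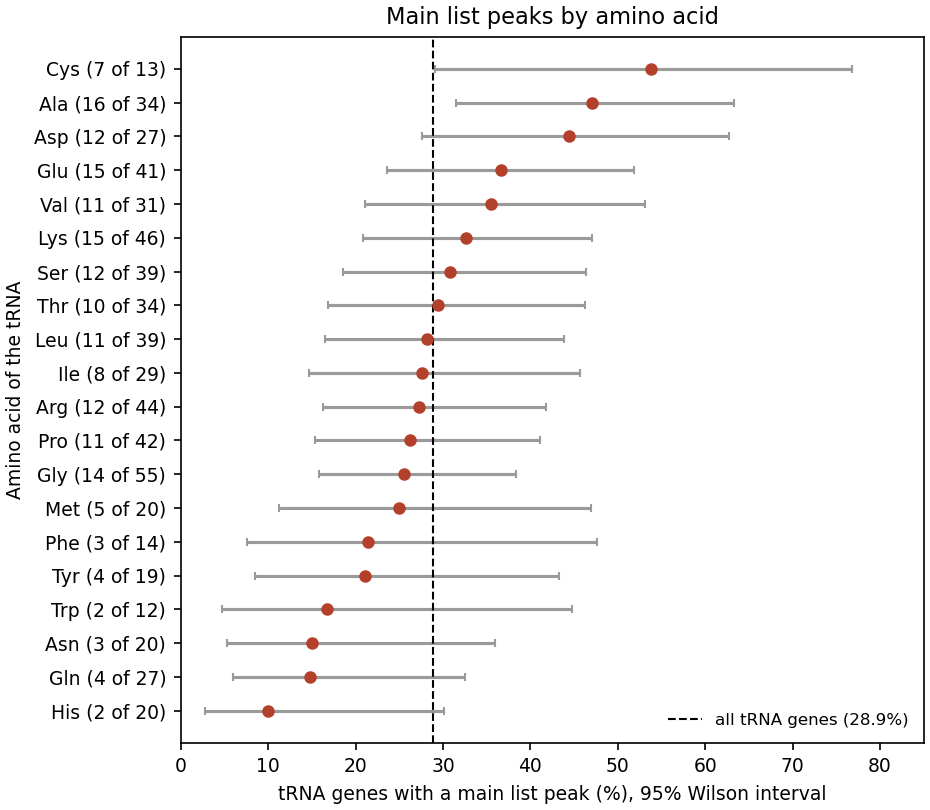
Percent of tRNA genes with a main list peak for each amino acid with at least 5 genes (numbers in brackets), with 95% Wilson intervals; the dashed line is the share over all tRNA genes, 28.9%. Cysteine, alanine and aspartate are at the top (53.8%, 47.1% and 44.4%), histidine at the bottom (10%), and most intervals cross the line.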

How the data were processed

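CEBP-2 ChIP-seq peak lists of 2 biological replicates were analysed as deposited. Reads were aligned to ce11, per the file headers, while neither aligner nor peak caller is named there. The deposited signal column comes from peak calling by the authors on an unstated scale, so values were compared within a list only. Each deposited peak carries a score that rises with reproducibility, and no peak in a thresholded list scored under 830. In the deposited ranked lists the authors also give each peak the −log10 of its global IDR. Pooled ranked lists also hold 2 columns of values per replicate that no label ties to a sample, which were not used.

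The rest was computed here with Python 3.11.15, pandas 2.3.3, scipy 1.17.1 and statsmodels 0.14.6. Of 634 genes of biotype tRNA in Ensembl release 115 (WBcel235, the assembly of ce11), 22 mitochondrial ones were left out. All 612 nuclear genes matched RefSeq by WormBase ID and coordinates, and 607 had an amino acid there. An anticodon was read from the gene sequence in 553. A gene counted as having a peak where they shared at least 1 bp, and its signal is that of its highest overlapping peak. Identical copies have the same sequence over the annotated gene. Intronic genes lie wholly inside a protein-coding gene and share no base with its exons. Shares have 95% Wilson intervals and differences 95% Newcombe intervals. They treat genes as independent and say nothing of the spread between animals, and no p-value was computed. The code was tested on simulated data. The members, classes and lists were chosen with earlier results of these data known. Named genes are the 12 of highest main list signal, the 4 highest of each class, the 3 largest families and the genes just inside and outside the threshold. Others named were chosen after their values were seen.

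Alternatives were the conservative list, peaks above the median signal, each replicate's own list, other overlap rules and other definitions of identity, clustering and introns. The split by X and autosomes for identical and intronic genes, and the restriction to genes with box B letters, were added after seeing the data.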

Additional observations from a re-analysis of the deposited data

How the results depend on the processing

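No paired analysis was possible because the series has 1 group. Each replicate's own list served as the result without the other replicate. Those lists are shorter, with 254 and 386 peaks against 1419 in the main list. They gave 29 to 77 tRNA genes with a peak (177 in the main list) and 6.17% to 16.1% of ranked tRNA peaks passing (32.3%). Where the summit had to lie in the gene, 101 genes had a main list peak and 37.8% of the ranked peaks passed. X minus autosomes was 3.91 to 4.14 points in the own lists and 7.48 points in the conservative list, where it was called, with 4.74 points in the main list. Identical minus single was 0.708 to 6.38 points in the own lists and 13.2 points, no longer called, on X alone, against 14.9 points, and 7.85 points, still called, with the summit in the gene. With 50 bp to either side required to be identical it was -29.0 points, over 2 genes in that class, which cannot be read. Clustered minus lone was -0.126 to 0.902 points in the own lists, 3.75 points in the conservative list and 3.12 points with a distance of 500 bp, none of them called, and -8.93 points, called, with the summit in the gene. Its sign in the main list (-0.865 points) thus turned under 3 of the alternatives. Inside introns minus elsewhere was -6.39 to -5.56 points in the own lists, -9.12 points in the conservative list, -7.96 points for peaks above the median signal and -11.6 points for hosts on the same strand, each called, against -6.66 points, not called, in the main list, and -3.86 points, not called, with the summit in the gene. The median summit lay 13.0 to 19.0 bp into the gene in the own lists, against 23.0 bp. Of 47 alternative values, 26 kept the side of the threshold or stayed within the spread, 2 lost a call, 8 gained one, 7 moved by more than the spread or 1.5 times, and 4 changed sign. The causes of these changes were not tested. Since no read counts are in the files, what depth limits cannot be said.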

Other observations

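Peaks at tRNA genes were set against promoter windows of protein-coding genes, which begin 1000 bp before the 5′ end and reach 200 bp into the gene. The summit lay in such a window for 32 of 161 main list tRNA peaks (19.9%, 95% Wilson interval 14.4 to 26.7%) and for 62 of 338 tRNA peaks in the ranked list only (18.3%, 14.6 to 22.8%). The difference was 1.53 points (95% Newcombe interval -5.50 to 9.33). The share over all main list or ranked peaks is not given here, so these shares cannot be read as high or low.

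Genes for the same amino acid with different anticodons had different shares, on small numbers. Alanine genes with the anticodon TGC had a main list peak in 5 of 8 cases (62.5%, 30.6 to 86.3%) and those with AGC in 9 of 21 (42.9%, 24.5 to 63.5%). Glutamate genes with TTC had one in 8 of 17 cases (47.1%, 26.2 to 69.0%) and those with CTC in 7 of 24 (29.2%, 14.9 to 49.2%). Glycine genes with TCC had one in 12 of 36 cases (33.3%, 20.2 to 49.7%) and those with GCC in 2 of 15 (13.3%, 3.74 to 37.9%). The intervals overlap within each amino acid, and these anticodons were chosen after their values were seen.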
